A study of Mus musculus with 10 samples.

Results

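The genes described here are 40 markers of leukocytes, platelets and red cells, taken from the 55385 genes of the deposited table by matching Ensembl identifiers, without their version, to a fixed list of mouse symbols. The matching rule uses no measured value, but the list was chosen with earlier results of these data known. The list holds 1 pan-leukocyte gene, 14 macrophage genes, 6 neutrophil genes, 6 T and NK cell genes, 4 B cell genes, 1 other lymphoid gene, 3 platelet genes and 5 red cell genes.

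RNA sequencing measured poly-adenylated RNA of sorted lung endothelial cells from mice of the strain Cdh5.iCreERT2xTnfsf10Lox/Lox. Control libraries (n = 5) were L/L for Tnfsf10 and W/W for Cdh5.Cre. Libraries labelled EC-TRAIL KO (n = 5), called KO-labelled below, were also L/L for Tnfsf10 and were Tg/W for Cdh5.Cre. Tnfsf10 encodes the death ligand TRAIL, both groups carried its loxP-flanked allele, and the Cre recombinase is driven by the endothelial Cdh5 promoter and switched on by tamoxifen. Mice were 8 to 14 weeks old, and the treatment text gives 1 mg tamoxifen per day for 5 or 10 days, without naming the duration of each library. The Cre transgene was present in each KO-labelled library and in no control, so the transgene and the deletion cannot be told apart. The series' design text counts 5 W/W and 4 Tg/W animals, fewer Tg/W than the 5 libraries with that label, and the labels tie no library to an animal. The tests below therefore measure spread among libraries, part of which may be technical.

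Endothelial sorting enriches vessel-lining cells by surface proteins, and blood cells attached to or trapped in the lung's capillaries can travel with them. Leukocytes carry the phosphatase CD45, encoded by Ptprc. Macrophages of the lung line alveoli or lie in the interstitium, platelets shed from megakaryocytes carry adhesion receptors and leftover messenger RNA, and red cells keep globin transcripts for a while after losing their nucleus. Several genes used as blood cell markers are also expressed by lung cells that are not blood cells.

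Control libraries held between 34435835 and 56897822 expected counts, and KO-labelled libraries between 29806083 and 34702571. Values are given as CPM, that is counts scaled to a common library size after TMM normalization. Tnfsf10, the targeted gene, was at 373.6, 369.5, 298.2, 323.3 and 304.6 CPM in controls 1 to 5 and at 198.9, 318.0, 126.3, 169.3 and 80.99 CPM in KO-labelled libraries 1 to 5. KO-labelled replicate 2 therefore lay within the control range, and Tnfsf10 did not pass (log2 fold change -0.90, edgeR adjusted p = 0.425). It passed without that library (-1.21, edgeR adjusted p = 0.0345). With the replicate number as a block in the model, Tnfsf10 came close to the threshold but did not pass (-1.04, edgeR adjusted p = 0.0513). The 12 endothelial markers summed to between 15695 and 17978 CPM in controls and between 16004 and 17962 CPM in KO-labelled libraries. The 11 alveolar and airway epithelial markers summed to between 8420 and 12901 CPM in controls and between 7237 and 10077 CPM in KO-labelled libraries, so RNA of other lung cells was present.

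Blood cell markers were low in both groups, with the exception of a few genes. Levels of different genes were compared per kilobase of exon. On that scale Pecam1 and Cdh5, adhesion proteins of endothelium, averaged 364 and 935 CPM per kb over the 10 libraries. Sftpc, a gene of alveolar type II cells, averaged 4082 CPM per kb. Ptprc averaged 0.179 CPM per kb, which is 0.0491% of the Pecam1 level. Length here is the union of all annotated exons, 18313 bases for Ptprc. That can exceed the length of the transcript in use, so levels per kilobase may read low. The highest level among the 40 genes was that of Lyz2, the lysozyme gene of myeloid cells, at 1015 CPM per kb. Cd68, a lysosomal glycoprotein gene of macrophages, followed at 28.3 CPM per kb and Csf1r, the receptor for the macrophage growth factor CSF1, at 7.52 CPM per kb. The red cell genes Hba-a2 and Hbb-bs came next, at 5.81 and 5.08 CPM per kb.

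Of the 40 genes, 25 had enough counts for the test between groups and 15 did not. The 15 untested genes reached at most 25 counts and 0.664 CPM in any library. They were 7 macrophage genes (Adgre1, Marco, Itgax, C1qa, C1qb, C1qc and Fcgr1), 4 neutrophil genes (S100a8, Retnlg, Csf3r and Ly6g) and 4 T and NK cell genes (Cd3d, Cd3e, Nkg7 and Gzma). Marco, a scavenger receptor of alveolar macrophages, was at 0 counts in 4 of 5 controls and 1 of 5 KO-labelled libraries. Ly6g, the surface antigen that defines mouse neutrophils, was at 0 counts in 2 controls and 4 KO-labelled libraries. Controls held 34435835 to 56897822 expected counts and KO-labelled libraries 29806083 to 34702571. Libraries at 0 counts are therefore not directly comparable between the groups. A library at 0 counts is compatible with up to 3 counts, a limit that covers counting error only.

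**Figure D1:**
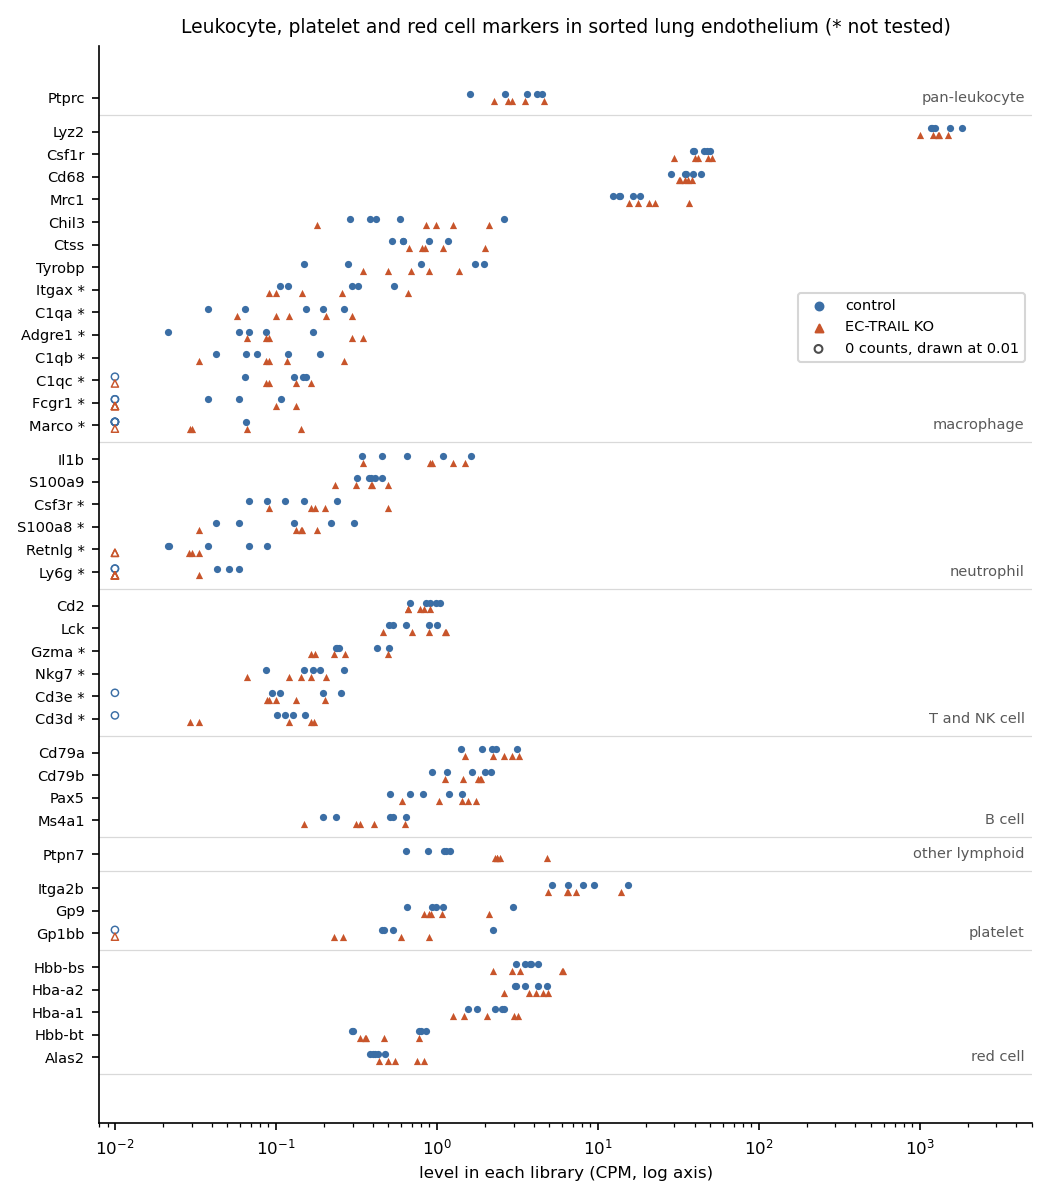
Level of each of the 40 marker genes in each library (x axis, CPM on a log axis; y axis, genes grouped by lineage; circles, 5 controls; triangles, 5 libraries labelled EC-TRAIL KO; open symbols, 0 counts drawn at 0.01). Lyz2 lies between 1001 and 1827 CPM, the genes marked with an asterisk lie at or below 0.664 CPM, and Ptpn7 is the only gene whose groups do not overlap among the 25 tested.

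Between the groups, 1 of the 25 tested genes was higher in the KO-labelled libraries and 0 were lower (edgeR quasi-likelihood test, Benjamini-Hochberg adjustment over all 17997 genes tested, threshold 0.05). Among all genes tested, 79 were higher, which is 0.439%, and 0 were lower. The marker list was chosen with earlier results of these data known, so this is not an independent comparison. At an unadjusted p under 0.05, 3 of the 25 stood out (Ptpn7, Mrc1 and Alas2), beside 923 of all genes tested (5.13%). DESeq2 called 208 genes higher and 3 lower over the whole table. The log2 fold change was above 0 in 13 of the 25 genes and below 0 in 12, with a median of 0.025, beside -0.0085 over all genes tested. Every KO-labelled library was above every control for 1 of the 25 genes (1.38% of all genes tested) and below every control for 0 (0.261%). In bulk RNA, fewer cells of a type and less RNA per cell cannot be told apart.

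**Figure D2:**
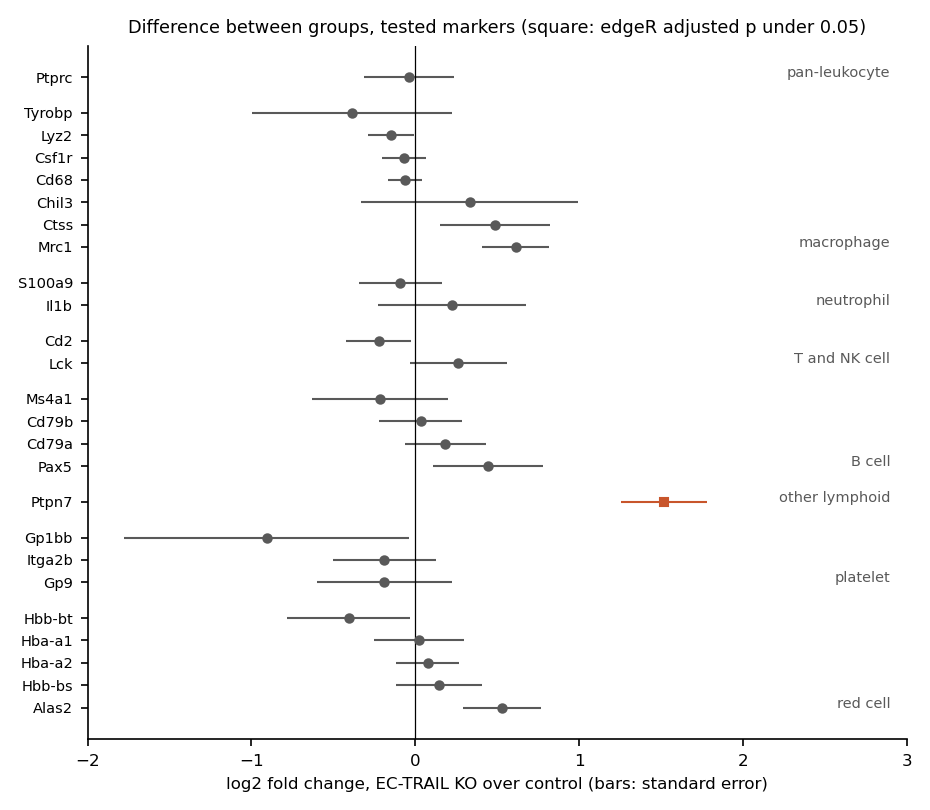
Log2 fold change of the 25 tested markers, libraries labelled EC-TRAIL KO over controls (x axis; bars, standard error; y axis, genes grouped by lineage; square, adjusted p under 0.05 in edgeR). Ptpn7 stands at 1.52, and the other 24 genes lie between -0.91 and 0.61.

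Ptpn7, which encodes a tyrosine phosphatase of blood-forming and lymphoid cells that acts on MAP kinases, was the gene that rose. It lies on GRCm38 chromosome 1, 135132700 to 135145317, plus strand (ENSMUSG00000031506). Ptpn7 was at 1.14, 1.21, 0.641, 1.11 and 0.887 CPM in controls 1 to 5 and at 2.30, 4.84, 2.48, 2.37 and 2.36 CPM in KO-labelled libraries 1 to 5. The 5 KO-labelled libraries lay above the 5 controls, and replicate 2 lay apart from the other 4. The log2 fold change was 1.52 (SE 0.263), a 2.86-fold higher level (edgeR adjusted p = 0.0432). Raw counts of the gene ran from 30 to 146 per library. Without KO-labelled replicate 2 the log2 fold change was 1.25 and the gene still passed (edgeR adjusted p = 0.0319).

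The call for Ptpn7 was close to the threshold. It was lost with limma-voom (adjusted p = 0.144), with library size only as the scaling (edgeR adjusted p = 0.0501), and without KO-labelled replicate 3 (0.0752) or 4 (0.107). Leaving out any single control also ended it, with edgeR adjusted p of 0.165, 0.115, 0.167, 0.0856 and 0.152 without controls 1 to 5. The log2 fold change stayed between 1.25 and 1.61 over the 19 alternatives, and 9 of them kept the call.

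Other lymphoid genes did not pass. The summed level of the 6 T and NK cell genes ran from 1.84 to 2.71 CPM in controls and from 1.87 to 2.52 CPM in KO-labelled libraries, and that of the 4 B cell genes from 3.10 to 7.23 and from 3.54 to 7.30 CPM. A further list of 18 T and NK cell genes summed to between 23.7 and 36.5 CPM in controls and between 32.6 and 50.3 CPM in KO-labelled libraries. Thy1, a surface protein of T cells and other cell types, and Cd247, a chain of the T cell receptor complex, made up most of that sum. Thy1 averaged 16.2 ± 4.16 and 20.8 ± 4.22 CPM in the 2 groups (SD, n = 5 each), and Cd247 averaged 5.94 ± 1.34 and 7.85 ± 2.77 CPM. Top2a, the DNA topoisomerase of dividing cells, moved with Ptpn7. It was at 13.4, 19.98, 10.9, 20.95 and 15.9 CPM in controls 1 to 5 and at 33.2, 170.2, 71.7, 85.8 and 50.9 CPM in KO-labelled libraries 1 to 5 (log2 fold change 2.34, edgeR adjusted p = 0.0432). Replicate 2 was the highest KO-labelled library for both genes. The part of lymphoid cells and of dividing cells in the Ptpn7 difference was not tested.

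**Figure D3:**
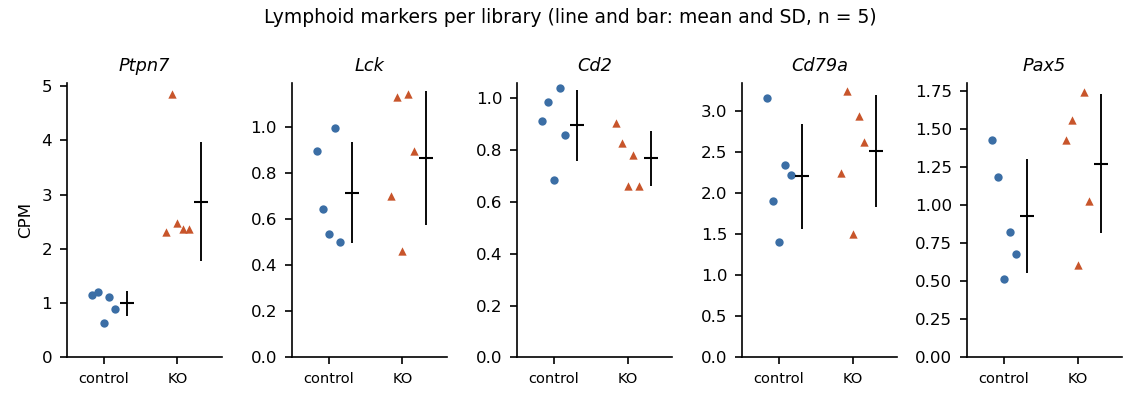
Levels of Ptpn7, Lck, Cd2, Cd79a and Pax5 in each library (y axis, CPM, from 0; circles, controls; triangles, libraries labelled EC-TRAIL KO; line and bar, mean and SD, n = 5 each). The groups are separate for Ptpn7, from 0.641 to 1.21 against 2.30 to 4.84 CPM, and overlap for the other 4 genes.

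Among T and NK cell genes, the antigen receptor chains Cd3d and Cd3e reached at most 7 and 15 counts in a library. Lck, the kinase that starts T cell receptor signalling, was at 0.894, 0.646, 0.534, 0.997 and 0.503 CPM in controls 1 to 5 and at 0.70, 1.13, 0.461, 1.14 and 0.896 CPM in KO-labelled libraries 1 to 5. Those ranges overlapped (log2 fold change 0.26, SE 0.297, edgeR adjusted p = 0.997). Cd2, an adhesion receptor of T and NK cells, was at 0.913, 0.986, 0.684, 1.04 and 0.858 CPM in controls and at 0.904, 0.829, 0.663, 0.781 and 0.664 CPM in KO-labelled libraries. The 2 lowest KO-labelled values lay below the lowest control, without a call (log2 fold change -0.22, SE 0.199, edgeR adjusted p = 0.997). Gzma, a granule protease of killer cells and not tested, was at 0.247, 0.425, 0.235, 0.239 and 0.503 CPM in controls and at 0.175, 0.166, 0.230, 0.270 and 0.498 CPM in KO-labelled libraries. Its highest value fell on replicate 5 in each group.

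Of the 18 further T and NK cell genes, 9 were tested and 0 passed. The 9 log2 fold changes were above 0, from 0.0070 to 0.62 with a median of 0.37, while 8 of 9 were above 0 with library size only as the scaling and 7 of 9 without control replicate 4, where the median was 0.18. Zap70, a kinase downstream of the T cell receptor, had the smallest p of that list. Zap70 averaged 2.38 ± 0.259 CPM in controls and 3.36 ± 0.668 CPM in KO-labelled libraries (SD, n = 5 each; log2 fold change 0.49, edgeR adjusted p = 0.545).

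B cell genes were detected in each library. Cd79a and Cd79b encode the signalling chains of the B cell receptor, Ms4a1 encodes CD20, and Pax5 encodes the transcription factor that keeps B cell identity. Cd79a was at 3.16, 1.90, 1.41, 2.34 and 2.22 CPM in controls 1 to 5 and at 2.25, 3.25, 1.5, 2.95 and 2.62 CPM in KO-labelled libraries 1 to 5. Replicate 3 was the lowest of each group (log2 fold change 0.18, SE 0.248, edgeR adjusted p = 0.997). Cd79b was at 2.0, 2.18, 0.940, 1.65 and 1.15 CPM in controls and at 1.90, 1.86, 1.12, 1.80 and 1.46 CPM in KO-labelled libraries, again lowest in replicate 3. Pax5 was at 1.43, 1.19, 0.513, 0.824 and 0.680 CPM in controls and at 1.43, 1.56, 0.605, 1.74 and 1.03 CPM in KO-labelled libraries. Of the 4 log2 fold changes, 3 were above 0, with a median of 0.11. Across the 10 libraries, Cd79a and Pax5 varied together (Pearson r = 0.82, permutation p = 0.0047, adjusted over 28 gene pairs 0.0265). Spearman's rho was 0.78 (permutation p = 0.0106, adjusted 0.0593), and r fell to 0.55 without the 2 libraries farthest from the Cd79a median. Cd79a and Cd79b gave r = 0.67 (adjusted permutation p = 0.0996), which was 0.12 without those 2 libraries, and Cd79a and Ms4a1 gave r = 0.26 (adjusted permutation p = 0.517). All correlations are over the same 10 libraries and so share their depth and scaling.

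Of 12 further B and plasma cell genes, 9 were tested and 0 passed, with a median log2 fold change of -0.024. Vpreb3, a gene of the B lineage, had the smallest p, at 1.22 ± 0.35 CPM in controls and 0.822 ± 0.210 CPM in KO-labelled libraries (SD, n = 5 each; log2 fold change -0.57, edgeR adjusted p = 0.957).

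Ptprc itself did not separate the groups. It was at 4.51, 4.18, 1.6, 2.65 and 3.64 CPM in controls 1 to 5 and at 3.56, 4.64, 2.28, 2.95 and 2.75 CPM in KO-labelled libraries 1 to 5. Replicates 1 and 2 were the highest of each group and replicate 3 the lowest. The log2 fold change was -0.038 (SE 0.276, edgeR adjusted p = 0.997). Of 8 further pan-leukocyte genes, all tested, 0 passed, with a median log2 fold change of 0.07. Arhgdib had the smallest p of these, with a log2 fold change of 0.10 (edgeR adjusted p = 0.997).

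Macrophage genes spanned the widest range of levels. Lyz2 was at 1203, 1827, 1256, 1182 and 1550 CPM in controls 1 to 5 and at 1493, 1001, 1328, 1300 and 1216 CPM in KO-labelled libraries 1 to 5. The highest control was replicate 2 and the lowest KO-labelled library was also replicate 2 (log2 fold change -0.15, SE 0.139, edgeR adjusted p = 0.997). Cd68 was at 43.9, 34.6, 28.6, 38.9 and 35.3 CPM in controls and at 36.2, 31.9, 32.3, 34.9 and 38.4 CPM in KO-labelled libraries. The KO-labelled range lay inside the control range. C1qa, C1qb and C1qc, the complement chains made by tissue macrophages, averaged 0.144, 0.0994 and 0.0502 CPM per kb, far below Lyz2 and Cd68.

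Lyz2 followed Sftpc across the libraries. Sftpc encodes surfactant protein C and defines alveolar type II cells, which also express Lyz2. Sftpc was at 3638, 6171, 3941, 3734 and 4403 CPM in controls 1 to 5 and at 4302, 3243, 4161, 4440 and 4174 CPM in KO-labelled libraries 1 to 5. The correlation of Lyz2 and Sftpc was r = 0.92 (permutation p adjusted over 28 pairs 0.0031; rho = 0.87, adjusted 0.0330). It was 0.72 without the 2 libraries farthest from the Lyz2 median and 0.92 with group means subtracted. Sftpc was named after its values were seen, and the adjustment covers the 28 pairs alone. Lyz2 and Csf1r gave r = 0.64 (adjusted permutation p = 0.104), which fell to 0.15 without those 2 libraries. The difference between these correlations was not tested, and neither was the part of alveolar type II cells in the Lyz2 level.

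Mrc1, the mannose receptor, had the smallest p among macrophage genes. Macrophages express it, and so does lymphatic endothelium. Mrc1 was at 13.7, 13.5, 12.5, 18.2 and 16.6 CPM in controls 1 to 5 and at 22.8, 36.9, 20.7, 17.9 and 15.6 CPM in KO-labelled libraries 1 to 5. The KO-labelled libraries 1, 2 and 3 lay above the highest control and the other 2 within the control range. The log2 fold change was 0.61 (SE 0.205) and did not pass (edgeR adjusted p = 0.550), and it was 0.37 without KO-labelled replicate 2. Prox1, the transcription factor that sets lymphatic identity, was at 23.4, 22.9, 19.4, 30.1 and 27.3 CPM in controls and at 40.5, 58.2, 27.3, 22.4 and 25.8 CPM in KO-labelled libraries. Both genes were highest in KO-labelled replicate 2. Their correlation was r = 0.94 (permutation p adjusted over 28 pairs 0.0031; rho = 0.83, adjusted 0.0415), and 0.76 without the 2 libraries farthest from the Mrc1 median. Prox1 was named after its values were seen, and the adjustment covers the 28 pairs alone. Mrc1 and C1qa gave r = 0.59 (adjusted permutation p = 0.114), with C1qa below 10 counts in each library. The part of lymphatic endothelium in the Mrc1 values was not tested.

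**Figure D4:**
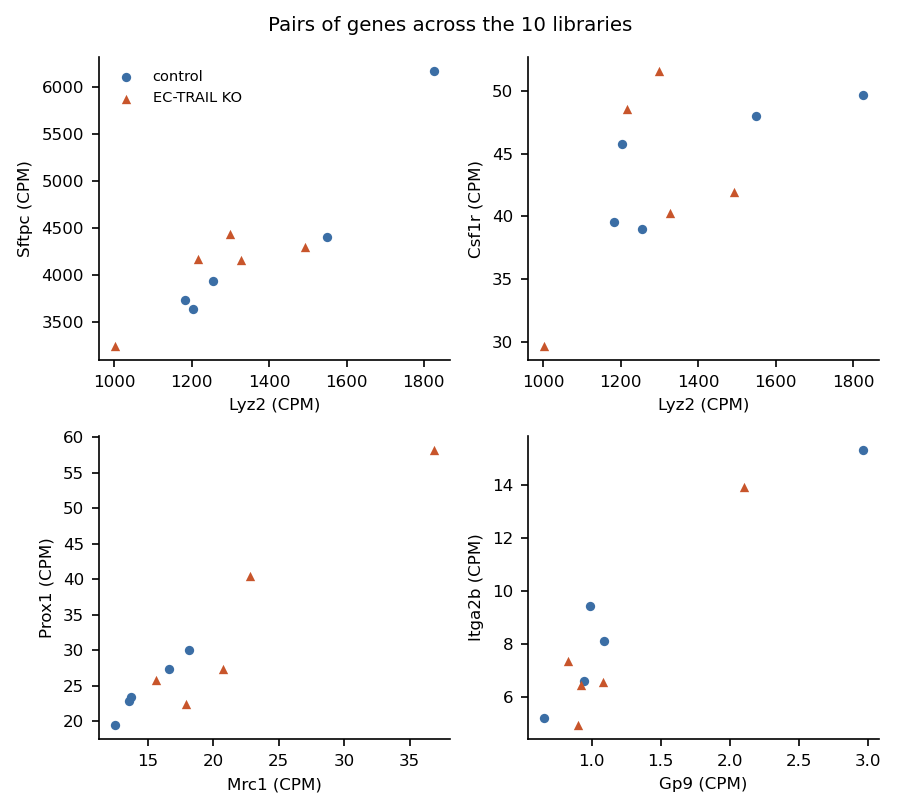
Pairs of genes over the 10 libraries (both axes in CPM; circles, controls; triangles, libraries labelled EC-TRAIL KO). Lyz2 and Sftpc (r = 0.92), Mrc1 and Prox1 (r = 0.94) and Gp9 and Itga2b (r = 0.91) lie near a line, with 1 or 2 libraries far from the rest, and Lyz2 and Csf1r (r = 0.64) scatter more widely; r was computed on log2 CPM.

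The remaining macrophage genes were low. Ctss, the lysosomal protease cathepsin S, was at 0.894, 0.527, 0.620, 1.17 and 0.621 CPM in controls 1 to 5 and at 0.671, 1.99, 0.807, 0.841 and 1.10 CPM in KO-labelled libraries 1 to 5. Only KO-labelled replicate 2 exceeded the control range, and the log2 fold change of 0.49 (edgeR adjusted p = 0.997) was 0.15 without it. Chil3, a chitinase-like secreted protein of alveolar macrophages, ran from 0.289 to 2.62 CPM in controls and from 0.180 to 2.10 CPM in KO-labelled libraries. Tyrobp, a signalling adaptor of myeloid and NK cells, ran from 0.150 to 1.96 CPM and from 0.346 to 1.37 CPM. Csf1r ran from 39.0 to 49.7 CPM and from 29.7 to 51.6 CPM (log2 fold change -0.067, edgeR adjusted p = 0.997). Its exons share 15.1% of their bases with Hmgxb3 on the opposite strand, a gene at 43.9 CPM, and no source used here gives the strand setting of the counting. Over the 7 tested macrophage genes the log2 fold change had a median of -0.062 and was above 0 in 3. Of 18 further macrophage and monocyte genes, 11 were tested and 0 passed, with a median of 0.08. Mpeg1, which encodes a pore-forming protein of macrophages, had the smallest p (log2 fold change 0.21, edgeR adjusted p = 0.997).

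Of the 6 neutrophil genes, 4 had too few counts for the test. S100a8 and S100a9, the calprotectin subunits that mature neutrophils make in very large amounts, averaged 0.201 and 0.727 CPM per kb. S100a9 was at 0.381, 0.391, 0.321, 0.455 and 0.414 CPM in controls 1 to 5 and at 0.496, 0.398, 0.317, 0.391 and 0.232 CPM in KO-labelled libraries 1 to 5, which is 7 to 23 counts per library. Il1b, the inflammatory cytokine of neutrophils and monocytes, was at 1.64, 1.09, 0.342, 0.455 and 0.651 CPM in controls and at 1.49, 1.26, 0.346, 0.902 and 0.929 CPM in KO-labelled libraries. In both groups replicates 1 and 2 held the highest Il1b values and replicate 3 the lowest. The log2 fold changes of S100a9 and Il1b were -0.09 and 0.22 (edgeR adjusted p = 0.997 for each). Of 14 further neutrophil genes, 5 were tested and 0 passed, with a median log2 fold change of -0.16 and 4 of the 5 below 0. Lcn2, the iron-sequestering lipocalin, was the 1 above 0 and had the smallest p (log2 fold change 0.17, edgeR adjusted p = 0.997). Lcn2 and Hdc averaged 13.0 and 4.92 CPM per kb, far above S100a9, while Ltf, Cxcr2 and Cd177 averaged 0.343, 0.176 and 0.109. The part of cells other than neutrophils in these values was not tested.

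Of the 3 platelet genes, 2 were highest in the libraries numbered 4 of both groups, and 0 passed between the groups. Itga2b encodes the platelet integrin subunit for fibrinogen, and Gp9 and Gp1bb encode subunits of the receptor for von Willebrand factor. Itga2b was at 9.42, 8.09, 6.58, 15.3 and 5.18 CPM in controls 1 to 5 and at 6.56, 7.33, 6.45, 13.9 and 4.91 CPM in KO-labelled libraries 1 to 5. Gp9 was at 0.990, 1.09, 0.940, 2.97 and 0.651 CPM in controls and at 1.08, 0.829, 0.922, 2.10 and 0.896 CPM in KO-labelled libraries. Both genes were highest in replicate 4 of each group. Gp1bb was at 0.533, 0.459, 0.470, 2.23 and 0 CPM in controls and at 0.263, 0.896, 0.230, 0.601 and 0 CPM in KO-labelled libraries. Its exons share 91.1% of their bases with Sept5 on the same strand, a gene at 5.77 CPM, so the division of reads between the genes is uncertain. The log2 fold changes were -0.19 for Itga2b, -0.19 for Gp9 and -0.91 for Gp1bb, and 0 of 3 passed (edgeR adjusted p = 0.997 for each). Without control replicate 4 alone, where KO-labelled replicate 4 stayed in, they were 0.10, 0.34 and 0.07. With both libraries numbered 4 left out, Itga2b and Gp1bb kept their negative sign and the sign of Gp9 turned.

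The same replicate stood out in the further platelet list. Of its 10 genes, 9 had replicate 4 highest in both groups, beside 10.6% of all genes tested. Their mean log2 CPM was 2.77 in control replicate 4 and 2.27 in KO-labelled replicate 4, and between 0.85 and 1.52 in the other 8 libraries. Ppbp, a platelet chemokine, was at 19.1 CPM in control replicate 4 and between 2.95 and 4.47 CPM in the other 4 controls. In KO-labelled libraries Ppbp was at 8.48 CPM in replicate 4 and between 1.46 and 5.27 CPM in the other 4. Between the groups 0 of the 10 passed, with a median log2 fold change of -0.24. The median was 0.17 without control replicate 4 alone, where KO-labelled replicate 4 stayed in. With both libraries numbered 4 left out it was -0.12, and 1 of the 10 was above 0. Clec1b, which encodes the platelet receptor CLEC-2, had the smallest p (log2 fold change -0.20, edgeR adjusted p = 0.997). Gp9 and Itga2b correlated across the libraries with r = 0.91 (permutation p adjusted over 28 pairs 0.0073; rho = 0.78, adjusted 0.0593), which fell to 0.57 without the 2 libraries numbered 4. Whether a replicate number marks a shared litter, day or sort is not given in the sources used here. Over the 25 tested genes, the highest control and the highest KO-labelled library bore the same number for 9 (31.6% of all genes tested), and the libraries numbered 1 and 2 were the 2 highest of each group for 4 (3.77%).

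**Figure D5:**
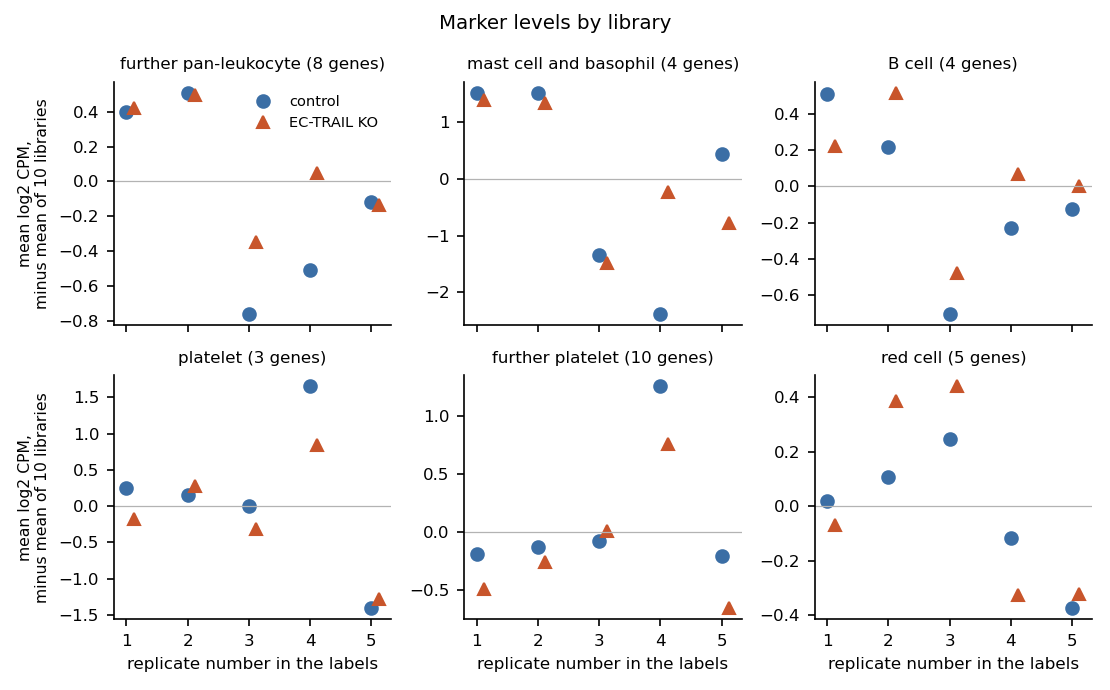
Mean log2 CPM of 6 marker lists in each library, minus the mean of the 10 libraries (y axis), by the replicate number in the labels (x axis; circles, controls; triangles, libraries labelled EC-TRAIL KO). Both libraries numbered 4 are highest for the 2 platelet panels, and the libraries numbered 1 and 2 are the highest of each group for the further pan-leukocyte panel and the mast cell and basophil panel.

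The Gp9 promoter is printed because Gp9 and the 4 globin genes described next hold the same short motif before their start. It covers the 250 bases before the RefSeq start (GRCm38.p6, chr6:87777820-87778069, plus strand), with the core motif of GATA factors, GATAAG, and the core motif of ETS factors, GGAAGT, in capitals.
Gp9: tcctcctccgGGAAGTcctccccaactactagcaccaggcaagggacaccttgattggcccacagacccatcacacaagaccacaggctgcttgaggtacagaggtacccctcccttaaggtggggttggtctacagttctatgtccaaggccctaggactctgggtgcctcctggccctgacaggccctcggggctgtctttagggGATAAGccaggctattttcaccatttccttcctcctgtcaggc
Searched on both strands in RefSeq promoters of that length, GATAAG occurred in 6.55% of 32851 promoters and GGAAGT in 19.7%. For 33 of the 40 genes, 37 promoters were matched by symbol, and a gene counted if any of its promoters held the motif. GATAAG was in promoters of 6 of the 33 (Gp9, Hba-a1, Hba-a2, Hbb-bs, Hbb-bt and Ptprc) and GGAAGT in those of 18. These are counts of genes and not shares of promoters, and the Hba-a1 and Hba-a2 promoters are nearly the same sequence. A match is a description of letters and not a binding site.

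Red cell genes did not separate the groups. Hba-a1 and Hba-a2 encode the alpha chains of adult haemoglobin, Hbb-bs and Hbb-bt the beta chains, and Alas2 the first enzyme of haem synthesis in erythroid cells. The members of each globin pair are nearly the same sequence: 428 of 429 coding bases were identical between Hba-a1 and Hba-a2, with C381T between them, and 443 of 444 between Hbb-bs and Hbb-bt, with C417T. Positions count from 1 at the A of the start codon. The 60-base windows around the differing base (capital) show how alike the copies are, and the parts outside the coding sequence were not compared.
Hba-a1: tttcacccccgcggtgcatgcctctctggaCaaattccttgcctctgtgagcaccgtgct
Hba-a2: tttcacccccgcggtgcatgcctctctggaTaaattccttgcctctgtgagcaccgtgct
Hbb-bs: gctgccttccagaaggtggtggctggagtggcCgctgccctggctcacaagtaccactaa
Hbb-bt: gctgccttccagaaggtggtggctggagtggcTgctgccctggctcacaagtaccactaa
The promoters of Hba-a1 and Hba-a2 are identical over 247 bases. That of Hba-a2 covers chr11:32296242-32296491 on the plus strand of GRCm38.p6, with GATAAG in capitals.
Hba-a2 promoter: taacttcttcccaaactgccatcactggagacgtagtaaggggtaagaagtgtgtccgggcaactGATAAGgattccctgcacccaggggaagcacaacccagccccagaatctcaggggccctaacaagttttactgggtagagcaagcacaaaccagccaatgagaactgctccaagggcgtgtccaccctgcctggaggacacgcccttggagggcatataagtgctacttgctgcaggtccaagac

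Because reads of the copies are divided by a model, the values of single globin genes are uncertain and their sums are given first. The 4 globin genes summed to 9.72, 10.6, 12.6, 10.2 and 8.04 CPM in controls 1 to 5 and to 9.92, 14.5, 14.4, 6.67 and 8.23 CPM in KO-labelled libraries 1 to 5. The KO-labelled libraries spread on both sides of the controls, with means of 10.2 ± 1.63 and 10.7 ± 3.57 CPM (SD, n = 5 each). Hba-a2 was at 3.12, 4.25, 4.85, 3.53 and 3.08 CPM in controls and at 4.14, 4.88, 4.55, 2.61 and 3.72 CPM in KO-labelled libraries (log2 fold change 0.08, edgeR adjusted p = 0.997). Hbb-bs was at 3.52, 3.81, 4.25, 3.84 and 3.11 CPM in controls and at 3.27, 6.01, 6.08, 2.22 and 2.92 CPM in KO-labelled libraries (log2 fold change 0.14, edgeR adjusted p = 0.997). Hbb-bt was at 0.780, 0.799, 0.855, 0.304 and 0.296 CPM in controls and at 0.467, 0.365, 0.778, 0.361 and 0.332 CPM in KO-labelled libraries. Its values overlapped between the groups (log2 fold change -0.41, edgeR adjusted p = 0.997). Hba-a1 and Hbb-bs, which lie on different chromosomes, varied together across the libraries (r = 0.87, permutation p adjusted over 28 pairs 0.0061; rho = 0.94, adjusted 0.0045), and r was 0.86 without the 2 libraries farthest from the Hba-a1 median.

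Alas2 was at 0.400, 0.476, 0.385, 0.434 and 0.414 CPM in controls 1 to 5 and at 0.438, 0.829, 0.547, 0.751 and 0.498 CPM in KO-labelled libraries 1 to 5. Of the KO-labelled libraries, 4 lay above the highest control, at 14 to 28 counts per library over both groups. The log2 fold change was 0.53 (SE 0.239) and did not pass (edgeR adjusted p = 0.957), and it was 0.40 without KO-labelled replicate 2. Alas2 exons share 12.9% of their bases with Apex2 on the opposite strand, a gene at 8.32 CPM. Alas2 and Hbb-bs gave r = 0.14 across the libraries (adjusted permutation p = 0.729), and 0.70 without the 2 libraries farthest from the Hbb-bs median. Of 10 further red cell genes, 4 were tested and 0 passed, and Bpgm, an enzyme of red cell glycolysis, had the smallest p (log2 fold change -0.14, edgeR adjusted p = 0.997).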

How the data were processed

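The submitters' processing notes name RSEM 1.2.28, STAR 2.7.1a and the build GRCm38. The deposited table holds the authors' expected counts per gene, not normalized, and 81.2% of values are whole numbers. No source used here gives the annotation release or the strand setting.

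Columns were matched to samples by title. Symbols and exon lengths came from the GENCODE annotation of GRCm38 (55144 identifiers matched), and promoters from RefSeq (GRCm38.p6). Expected counts were rounded and tested in R 4.3.3 with edgeR 4.0.16: filterByExpr with a minimum count of 10 (17997 genes kept), TMM scaling and the default quasi-likelihood F-test on group alone. Standard errors were derived from the F statistic and the log2 fold change. Log2 CPM used a prior count of 2. Correlations used two-sided permutation tests with 100000 resamples in scipy 1.17.1.

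In simulated counts at these depths (18057 genes, dispersion 0.05), changes were placed only in genes with a mean of at least 1 CPM. The test recovered 20.9% of 1.5-fold, 86.6% of 2-fold and 100% of 4-fold changes, with 8 false calls among 146. The dispersion was a set value, the same for every gene, and was not estimated from these data. Among the tested markers, the SE of the log2 fold change ran from 0.106 for Cd68 to 0.869 for Gp1bb. Recovery in the noisier markers can therefore be lower than these shares. Compared in pairs by a chi-square test, libraries differed by at least 18.5 per degree of freedom, so none appeared to be a repeat deposit. All 5 libraries labelled Tg/W were used, although the series' design text names 4 such animals.

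The 40 genes and the lists were chosen with earlier results of these data known. Values in every library are given for genes that passed, genes whose groups do not overlap, and, in each lineage, the 2 highest per kilobase and the 2 with the smallest p. Further lists are given by counts and by the gene with the smallest p. Top2a, Sftpc, Prox1, Ppbp, Thy1 and Cd247 were named after their values were seen. Alternatives were RLE factors, library size only, DESeq2 1.42.0, limma-voom (limma 3.58.1), other filters, the replicate number as a block and each library left out. The newer edgeR estimation and a fit without both libraries numbered 4 were added after the data were seen.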

Additional observations from a re-analysis of the deposited data

Results flagged for a closer look

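In each group of 5 libraries, the highest or lowest value of each of the 40 genes was compared with the nearest other value, and gaps above 0.71 of the group's range were taken out for a second look. Of 80 groups examined, 9 had such a gap, where chance gives about 1 in 20 for normally distributed values. Counts of 0 to 3, as for Marco and Ly6g, are not such values, so that rate does not apply to them.

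In 6 of the 9 cases the library was numbered 4. Gp9 was at 2.97 CPM in control replicate 4 and at 2.10 CPM in KO-labelled replicate 4, and Itga2b at 13.9 CPM in KO-labelled replicate 4. Gp1bb was at 2.23 CPM in control replicate 4, beside 0.533 CPM in the next control. Chil3 was at 2.62 CPM in control replicate 4, where the next control had 0.592 CPM. Marco was at 0.0651 CPM there, which is 3 counts, beside 0 in the other 4 controls.

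KO-labelled replicate 2, the library whose Tnfsf10 level lay within the control range, held 2 cases. Ptpn7 was at 4.84 CPM in it, beside 2.48 CPM in the next KO-labelled library. Csf3r, a growth factor receptor of neutrophils, was at 0.498 CPM, or 15 counts, beside 0.202 CPM. In KO-labelled replicate 5, Ly6g was at 0.0332 CPM, which is 1 count.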

How the results depend on the processing

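Ptpn7 was the only one of the 40 genes to pass in any of the 19 alternatives, and it passed in 9. The number of these genes called higher was 0 with library size only, limma-voom, or both libraries numbered 4 left out, and 0 to 1 with each library left out in turn. Over all genes, 2 were higher with library size only, 2 with limma-voom, 208 with DESeq2 (3 lower), 141 without a filter (2 lower), 1 without both libraries numbered 4, and 2 to 154 with each library left out (0 to 1 lower). The replicate number as a block gave 146 higher and 3 lower, with Ptpn7 at an edgeR adjusted p of 0.0129. Deviations of same-numbered libraries correlated at 0.227, 0.0679, 0.210, 0.433 and 0.114 for numbers 1 to 5. Of the 5 controls, 4 correlated best with their own number. Whether same-numbered libraries share an origin was not tested. The numbers were not taken as pairs in the main comparison because number 2 gave a correlation near 0 and no label says what a number marks.

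Signs turned for 13 of the 25 genes, none of which passed the test. Log2 fold changes were 0.013 for Tyrobp and -0.045 for Hba-a1 with limma-voom, 0.0067 for Ptprc and -0.026 for Hba-a1 with the block, and 0.016 for Gp9 without both libraries numbered 4. With each library left out they ran from -0.21 to 0.10 for Ptprc, -0.14 to 0.016 for Cd68, -0.15 to 0.037 for Csf1r, -0.061 to 1.38 for Chil3, -0.71 to 0.021 for Tyrobp and -0.22 to 0.031 for S100a9. They ran from -0.11 to 0.18 for Cd79b, -0.50 to 0.10 for Itga2b, -0.51 to 0.34 for Gp9, -1.42 to 0.068 for Gp1bb, -0.15 to 0.17 for Hba-a1, -0.0050 to 0.20 for Hba-a2 and -0.044 to 0.30 for Hbb-bs. The cause was not tested. The planned fit with edgeR's legacy estimation is the installed default and was not run apart. Lineage medians and means moved by less than the larger group SD of the lineage's mean log2 CPM. For means with 1 library left out this could not have come out otherwise, as 1 of 5 libraries cannot shift a mean that far. The platelet median ran from -0.51 to 0.095 with each library left out. In simulated counts with a dispersion of 0.05 the test recovered 20.9% of 1.5-fold changes placed in genes with a mean of at least 1 CPM. Recovery was not measured for the 25 genes alone, and several of them, such as Lck and Alas2, averaged less than that. The dispersion was a set value and was not taken from these genes.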

Other observations

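Mast cell and basophil genes, none of them among the 40, followed the replicate numbers in another way than platelet genes. Of 6 genes, 4 were tested (Cpa3, Mcpt8, Fcer1a and Ms4a2), and for 4 of 4 the libraries numbered 1 and 2 were the 2 highest of each group, beside 3.77% of all genes tested. Their mean log2 CPM was 0.45 and 0.45 in controls 1 and 2 and 0.32 and 0.27 in KO-labelled libraries 1 and 2, and between -3.46 and -0.63 in the other 6. Ms4a2, a chain of the IgE receptor, was at 2.02, 2.12, 0.150, 0.0217 and 1.04 CPM in controls 1 to 5 and at 1.66, 1.53, 0.346, 0.541 and 0.398 CPM in KO-labelled libraries 1 to 5. Of the 4, 0 passed between the groups, and Cpa3, a mast cell protease, had the smallest p (log2 fold change -0.32, edgeR adjusted p = 0.997). The same order held for 5 of 8 further pan-leukocyte genes, among them Coro1a, at 3.64, 3.28, 0.727, 0.651 and 1.42 CPM in controls and at 2.95, 3.55, 1.18, 1.83 and 1.83 CPM in KO-labelled libraries. These patterns were picked out after the values were seen and were not tested.

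Some genes used as leukocyte markers were far more abundant than Ptprc. Per kilobase of exon, Mertk, a receptor for dying cells, averaged 34.5 CPM per kb, Clec9a, a dendritic cell lectin, 22.6 and Zbtb46, a transcription factor of dendritic cells and endothelium, 12.5, while the dendritic cell genes Flt3 and Xcr1 averaged 0.012 and 0.023. Of the 7 dendritic cell genes, 3 were tested and 0 passed, and Zbtb46 had the smallest p (log2 fold change 0.17, edgeR adjusted p = 0.997). Among lists of other lung cells, 0 of 12 endothelial, 0 of 4 lymphatic, 0 of 11 epithelial, 0 of 6 fibroblast and 0 of 6 pericyte and smooth muscle genes passed. The smallest p in these lists belonged to Tek, Flt4, Epcam, Lum and Pdgfrb, with log2 fold changes of -0.22, 0.17, -0.22, -0.36 and -0.24 (edgeR adjusted p = 0.764, 0.974, 0.997, 0.997 and 0.997).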
